A study of Mus musculus with 5 samples.

Results

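Aminoacyl-tRNA synthetases were followed in mouse RNA sequencing libraries, 2 from a sham group and 3 from a group with ischemic stroke. The members were the 36 rows of the deposited gene table that carry the symbol of a listed synthetase, of 51912 rows in all and 17420 rows with an adjusted p-value. All 36 had an adjusted p-value, and all had reads in every library. They comprise 21 cytosolic and 15 mitochondrial enzymes. Lars2, the mitochondrial leucyl-tRNA synthetase, was left out by the rule. It was the only synthetase gene looked at that passed the test. The log2 change was 2.87 (SE 0.30, adjusted p = 1.64e-18) per the authors' deposited table. Lars2 averaged 9537 normalized counts over the libraries, against 143 (Ears2) to 1314 (Iars2) for the 15 mitochondrial members. Whether the reads counted for Lars2 all came from its mRNA was not tested, so this change is not read as one of that mRNA.

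Both groups were C57BL/6 mice of unstated age and sex with no transgene named in the labels. In the stroke group the middle cerebral artery was closed with a coated filament for 30 minutes under ketamine and xylazine. Mice entered the study when cerebral blood flow fell by at least 80%, and a motor score was taken at 24 hours. The same protocol text is attached to the sham samples, so what the sham operation left out is not stated. The sources used here give neither the tissue nor the time at which it was taken. Neuronal transcripts were abundant, as they are in brain: the authors' deposited table gave Snap25, a synaptic vesicle fusion protein, a mean normalized count of 65803. The labels do not say that libraries came from separate animals, so p-values measure only the spread between these libraries.

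Each aminoacyl-tRNA synthetase joins an amino acid to its matching tRNA at the cost of ATP, and so sets the supply of charged tRNA for the ribosome. Mammals keep separate nuclear genes for most cytosolic and mitochondrial enzymes, while Gars and Kars each encode both forms and are counted here as cytosolic. Several cytosolic enzymes sit in a multi-synthetase complex held together by scaffold proteins. Uncharged tRNA activates the kinase GCN2, which phosphorylates eIF2alpha. Translation of the transcription factor ATF4 then rises, and several cytosolic synthetase genes are known ATF4 targets. Dominant mutations in GARS and YARS cause Charcot-Marie-Tooth neuropathy, and recessive mutations in mitochondrial synthetases cause brain and muscle disease.

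ATF4 and C/EBP factors bind composite elements with the core TGATGNAA, so the promoters of the members were searched for these letters on both strands. The RefSeq windows (build GRCm38.p6) run from 250 bases before to 50 bases after the annotated start. A window was found for 27 of the 36 members, and 5 of the 27 held the core. These 5 were all cytosolic, 5 of 14 matched cytosolic genes (35.7%), against 0 of 13 mitochondrial genes and 1219 of 27025 genes with a window (4.51%). The match nearest the start of each gene is printed because the same 5 genes recur in the values by library. Each line runs 5′ to 3′ on the strand of the gene, with the match in capitals. TTNCATCA is the core read on the opposite strand.
Aars (chr8:111033840-111033869, plus strand): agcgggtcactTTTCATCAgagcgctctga
Gars (chr6:55037960-55037989, plus strand): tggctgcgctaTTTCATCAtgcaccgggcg
Iars (chr13:49682126-49682155, plus strand): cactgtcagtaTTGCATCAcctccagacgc
Tars (chr15:11399655-11399684, minus strand): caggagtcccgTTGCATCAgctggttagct
Yars (chr4:129189895-129189924, plus strand): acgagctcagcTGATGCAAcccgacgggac

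Counted from the RefSeq start, these matches began at 9 in Aars, -30 in Gars, 7 in Iars, -15 in Tars and 3 in Yars. In the GENCODE M21 annotation the Aars and Iars matches lie in untranslated exons, the Yars match touches coding sequence of at least 1 transcript, and the Gars and Tars matches lie upstream of the gene. A match in these letters is a description of the reference sequence and not an observed binding site.

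The libraries differed in size factor and in marker genes, in part along the groups and in part within them. Size factors were 0.945 and 0.734 in the sham libraries, called the deeper and the shallower, and 1.16, 1.13 and 1.12 in stroke libraries A, B and C. The letters follow the size factors and are not the replicate numbers of the labels. Normalized counts below are whole reads divided by these factors, with the reads recovered from the deposited values for all 36 members. Of the marker lists, 4 of 4 red blood cell genes were called lower in stroke, with summed normalized counts of 2480 and 444 in sham and 59.1 to 202 in stroke. The choroid plexus list (2 of 4 genes called lower) summed to 14251 in the deeper sham library and to between 251 and 376 in the other libraries. Of 5 mural cell genes, 3 were called higher (sums 2517 and 4344 in sham, 3742 to 5004 in stroke), and 0 of 6 neuronal, 5 astrocyte, 5 oligodendrocyte, 5 microglial, 5 endothelial and 2 tested neutrophil genes were called. Fold changes were positive in 6 of 6 neuronal, 3 of 5 astrocyte, 0 of 5 oligodendrocyte, 4 of 5 microglial, 5 of 5 endothelial and 2 of 2 neutrophil genes. The median log2 fold changes of these lists were 0.22, 0.01, -0.28, 0.36, 0.47 and 0.78 in that order. The part of these differences in the synthetase values was not tested. In bulk tissue, fewer cells of a type and less RNA per cell cannot be told apart.

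None of the 36 members passed the test between stroke and sham, while nearly all cytosolic members had a small positive fold change and most mitochondrial members a small negative one. In the authors' deposited DESeq2 results 0 of 36 members were called higher and 0 lower at an adjusted p below 0.05, against a background of 1.56% of 17420 tested genes (0.775% higher, 0.786% lower). At an unadjusted p below 0.05 the count of members was again 0, where 10.5% of all tested genes fell. The smallest member p was 0.0716, for Gars. A limma fit to the recovered reads also called 0 members, with 0 at an unadjusted p below 0.05, where 7.69% of 15386 genes fell, and called 4 genes (0.026%).

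The fold changes were small. In the authors' deposited table they ran from -0.43 to 0.43 on the log2 scale, with standard errors of 0.18 to 0.48. For 35 of the 36 members the 95% Wald interval lay within a 2-fold change in either direction. The exception was Ears2, the mitochondrial glutamyl-tRNA synthetase (log2 fold change 0.36, interval -0.32 to 1.03). The median log2 fold change was 0.10 over all members, 0.19 over the cytosolic and -0.10 over the mitochondrial members, beside -0.02 over all tested genes and 0.01 over the 10236 tested genes with a mean in the range of the members. As ratios of group means, the medians without the deeper sham library were 0.21 over all, 0.28 over cytosolic and -0.01 over mitochondrial members. Without the shallower one they were 0.00, 0.21 and -0.18, and without stroke library C 0.06, 0.15 and -0.10. Positive fold changes were found in 20 of 21 cytosolic and 3 of 15 mitochondrial members, beside 52.1% of the genes in that range.

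**Figure D1:**
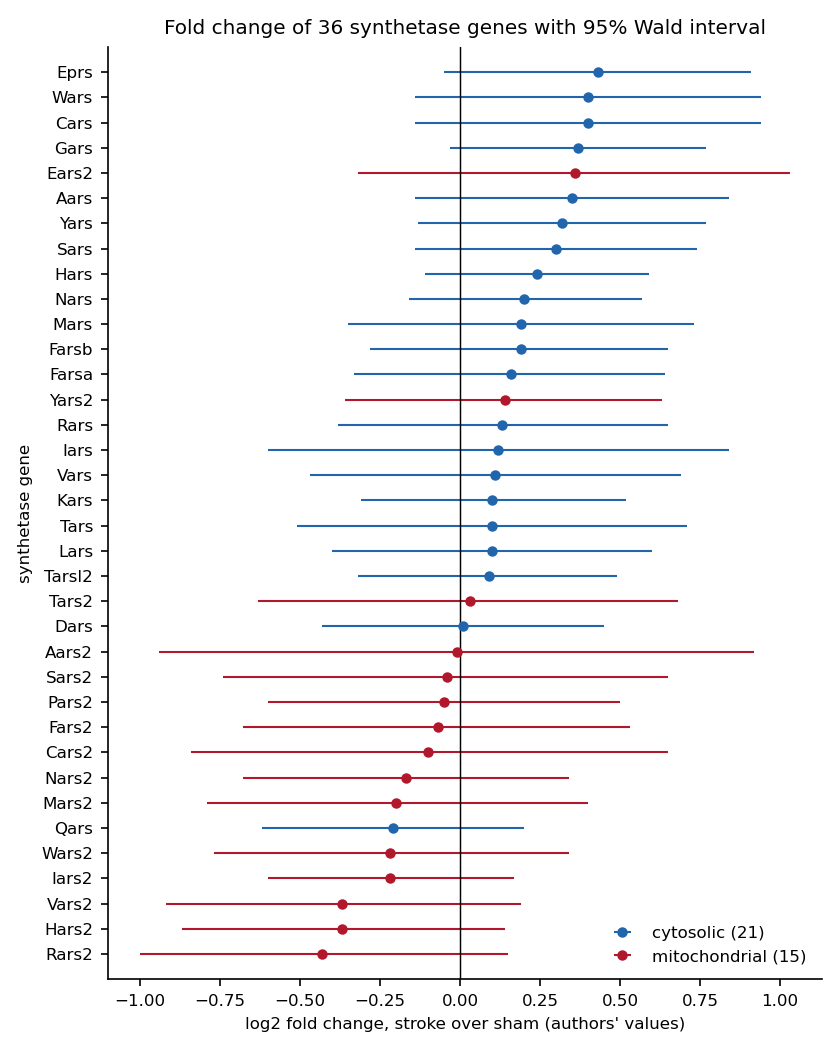
Log2 fold change of stroke over sham for the 36 synthetase genes, as the authors gave it (points), with 95% Wald intervals from the deposited standard errors (bars). Each interval crosses 0, the 20 cytosolic genes with positive values fill most of the upper part, and 12 of the 15 mitochondrial genes lie below 0.

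The cytosolic enzymes outside the multi-synthetase complex had positive fold changes in 13 of 13 genes, with a median of 0.24 on the log2 scale. The split of cytosolic members by the complex was made after their values were seen, and no test compared its parts. Gars, the glycyl-tRNA synthetase (chr6:55038007-55079500, plus strand), had normalized counts of 2520 and 2733 in the sham libraries and 3430, 2984 and 3754 in the stroke libraries. All stroke values lay above both sham values. The mean was 2627 in sham (n = 2) and 3389 ± 387 in stroke (SD, n = 3). The authors' deposited table gave a log2 change of 0.37 (SE 0.20, adjusted p = 0.545), which did not pass.

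Aars, the alanyl-tRNA synthetase (chr8:111033144-111057664, plus strand), had 3753 and 4173 normalized counts in sham and 4644, 4184 and 6300 in stroke. Its lowest stroke value exceeded the higher sham value by little, and stroke library C stood above the rest. The log2 fold change in the authors' deposited table was 0.35 (SE 0.25, adjusted p = 0.744). Exons of Exosc6 on the same strand cover 14.3% of the exonic bases of Aars, so reads of the pair can be confounded there.

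Cars, the cysteinyl-tRNA synthetase (chr7:143557230-143600090, minus strand), had 736 and 748 normalized counts in sham and 836, 840 and 1267 in stroke. The groups did not overlap, and library C was again far above A and B. The log2 fold change in the authors' deposited table was 0.40 (SE 0.28, adjusted p = 0.723), and it fell to 0.18 as a ratio of group means without library C.

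Wars, the tryptophanyl-tRNA synthetase known as an interferon-induced gene (chr12:108860030-108894174, minus strand), had 2180 and 1312 in sham and 2169, 2219 and 2514 in stroke. Here the shallower sham library alone was low. Without it the ratio of group means was 0.08 on the log2 scale, and without the deeper one 0.81, beside 0.40 (SE 0.28, adjusted p = 0.726) per the authors' deposited table. Yars, the tyrosyl-tRNA synthetase (chr4:129189760-129219607, plus strand), had 2067 and 1571 in sham and 2219, 2047 and 2550 in stroke. The groups overlapped, since stroke library B lay below the deeper sham library. Its log2 fold change was 0.32 (SE 0.23, adjusted p = 0.748) per the authors' deposited table.

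The most abundant member by count was Nars, the asparaginyl-tRNA synthetase, with 4129 and 4350 normalized counts in sham and 4781, 4540 and 5318 in stroke. These groups did not overlap, yet the log2 fold change was 0.20 (SE 0.19, adjusted p = 0.849) per the authors' deposited table. Sars, the seryl-tRNA synthetase, had 3445 and 2587 in sham and 3801, 3352 and 4003 in stroke. Its groups overlapped, with a log2 change of 0.30 (SE 0.23, adjusted p = 0.764) per the authors' deposited table. Hars, the histidyl-tRNA synthetase, had stroke values close together, with 2067 and 1942 in sham and 2369, 2295 and 2422 in stroke.

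Farsa and Farsb encode the alpha and beta subunits of the phenylalanyl-tRNA synthetase. Both were lowest in the shallower sham library. Farsa had 568 and 414 normalized counts in sham and 557, 545 and 545 in stroke, and Farsb 1067 and 763 in sham and 1046, 1015 and 1067 in stroke. The subunits thus had the same order of sham libraries, and the stroke values lay close to the deeper one. Tars and Tarsl2, the threonyl-tRNA synthetase and its paralogue, had fold changes of 0.10 and 0.09 on the log2 scale in the authors' deposited table. Vars, the valyl-tRNA synthetase, was at 0.11 there, with 1040 and 619 normalized counts in sham and 959, 766 and 963 in stroke.

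Of the 8 synthetases of the complex (Dars, Eprs, Iars, Kars, Lars, Mars, Qars and Rars), 7 had positive fold changes, with a median of 0.11 on the log2 scale. Eprs encodes the joined glutamyl- and prolyl-tRNA synthetase (chr1:185363044-185428360, plus strand). It had the largest positive member fold change, with 2122 and 3146 normalized counts in sham and 3383, 3440 and 3843 in stroke. All stroke values exceeded both sham values, but the sham libraries differed from each other by more (0.57 on the log2 scale) than the groups did. The authors' deposited table gave 0.43 (SE 0.24, adjusted p = 0.564).

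Qars, the glutaminyl-tRNA synthetase, was the only cytosolic member with a negative fold change. Its normalized counts were 937 and 1053 in sham and 867, 794 and 916 in stroke, so every stroke value lay below both sham values. The log2 fold change was -0.21 (SE 0.21, adjusted p = 0.874) per the authors' deposited table. Dars, the aspartyl-tRNA synthetase, stood at 0.01, with 1031 and 1338 in sham and 1124, 1177 and 1286 in stroke. Kars, the lysyl-tRNA synthetase, stood at 0.10 in the authors' deposited table, with 1644 and 1286 in sham and 1650, 1553 and 1521 in stroke. Mars, the methionyl-tRNA synthetase, had 996 and 621 in sham and 865, 931 and 972 in stroke. In each of these the stroke libraries lay within or close to the range of the sham libraries.

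The scaffold proteins of the complex had fold changes of both signs, and 0 of 3 were called in DESeq2 or limma, with 0 at an unadjusted p below 0.05 in either. Aimp1 had 632 and 683 normalized counts in sham and 745, 711 and 724 in stroke, and a log2 change of 0.15 (SE 0.20, adjusted p = 0.928) per the authors' deposited table. Aimp2 and Eef1e1 stood at -0.07 (SE 0.34) and -0.03 (SE 0.27) there. Only Aimp1 had stroke values above both sham values.

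The mitochondrial synthetases had lower levels and mostly negative fold changes. Rars2, the mitochondrial arginyl-tRNA synthetase (chr4:34614957-34660167, plus strand), had 382 and 578 normalized counts in sham and 325, 339 and 407 in stroke. Library C lay above the deeper sham library, so the groups overlapped. The authors' deposited table gave -0.43 (SE 0.29, adjusted p = 0.721), the most negative value of the members. Hars2, the mitochondrial histidyl-tRNA synthetase, had 484 and 405 in sham and 294, 373 and 367 in stroke, with no overlap. Its log2 fold change was -0.37 (SE 0.26, adjusted p = 0.735) per the authors' deposited table. Hars and Hars2 are neighbours on opposite strands whose exons overlap (7.97% of Hars and 4.56% of Hars2), and the sources used here do not say whether counting used the strand.

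Iars2 and Wars2, the mitochondrial isoleucyl- and tryptophanyl-tRNA synthetases, also had stroke values below both sham values. Iars2 had 1321 and 1548 in sham and 1204, 1250 and 1247 in stroke. For this gene 24.2% of the exonic bases are shared with genes on the opposite strand, Rab3gap2 among them. Wars2 had 195 and 181 in sham and 164, 149 and 173 in stroke. Both stood at -0.22 on the log2 scale in the authors' deposited table. Positive fold changes were those of Ears2 (147 and 96.7 in sham, 150, 147 and 173 in stroke), Yars2 (333 and 286, then 318, 327 and 377) and Tars2 (666 and 331, then 524, 493 and 507). In all 3 genes the shallower sham library was the lowest of the 5 libraries.

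Across the family 6 of 36 members had all stroke libraries above both sham libraries (Aars, Cars, Eprs, Gars, Hars and Nars), against 12.7% of 15386 genes with recovered reads and 14.6% of those with a mean in the range of the members. Another 4 had all stroke libraries below both (Hars2, Iars2, Qars and Wars2), against 12.2% and 9.19%. The upper 6 were all cytosolic (28.6% of 21), and 3 of the lower 4 were mitochondrial (20% of 15). Over all members, 16.7% lay above and 11.1% below, near the background shares.

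**Figure D2:**
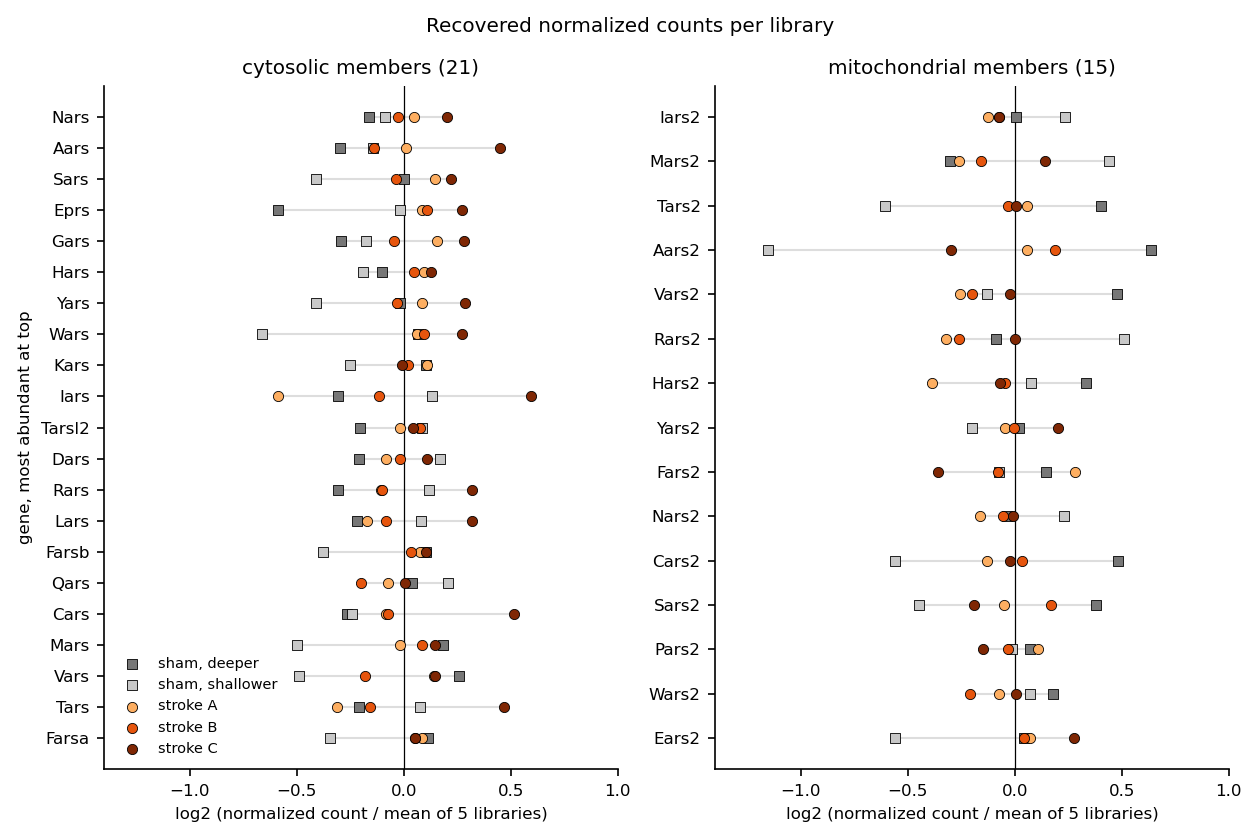
Recovered normalized counts of each member in the 5 libraries, as log2 of the value over the mean of the 5 libraries (x axis), with sham libraries as squares, stroke libraries as circles and genes ordered by mean count. Stroke library C is the rightmost point in 14 of 21 cytosolic genes and 2 of 15 mitochondrial genes, and the sham libraries are far apart in genes such as Aars2, Tars2 and Cars2.

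The spread between the sham libraries was as large as the differences between the groups. In 28 of 36 members the log2 gap between the sham libraries exceeded the absolute log2 fold change in the authors' deposited table (77.8%, beside 72.6% of all genes with recovered reads). The largest gap was that of Aars2, the mitochondrial alanyl-tRNA synthetase linked to cardiomyopathy and leukoencephalopathy, with 675 and 195 normalized counts in sham and 452, 494 and 353 in stroke. The stroke values lay between the sham values, and the log2 fold change was -0.01 (SE 0.48) per the authors' deposited table. Tars2 (666 against 331) and Cars2 (284 against 138) were also higher in the deeper sham library, while Mars2 (602 against 1008) and Rars2 were higher in the shallower.

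Signs therefore depended on single libraries. As ratios of group means, 14 of 21 cytosolic members were positive without the deeper sham library, 15 without the shallower one and 15 without stroke library C, while 20 stayed positive without A or without B. The positive mitochondrial members numbered 7 of 15 without the deeper sham library, 3 without the shallower one and 7 without stroke library C. In the limma fit the omission of the deeper sham library called 4 members higher (Aars2, Mars, Tars2 and Wars), together with 18.2% of all genes. Without the shallower sham library Eprs was called, together with 3.13% of all genes. The lone sham library is then assumed to vary as the stroke libraries do. Without stroke library A, B or C 0 members were called, together with 0.0065%, 0.013% and 0.013% of all genes.

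Cytosolic and mitochondrial enzymes for the same amino acid could be set side by side in 15 pairs, which hold 14 cytosolic genes because Eprs serves both glutamate and proline. The cytosolic log2 fold change in the authors' deposited table was the larger of the pair in 15 of 15. The widest gaps were those of Wars (0.40) against Wars2 (-0.22), Hars (0.24) against Hars2 (-0.37) and Rars (0.13) against Rars2 (-0.43). The narrowest were Eprs (0.43) against Ears2 (0.36) and Tars (0.10) against Tars2 (0.03). As ratios of group means the cytosolic member was the larger in 11 pairs without the deeper sham library, 14 without the shallower one and 13 without stroke library C. No test was made of the pairs, which share the same 5 libraries.

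Levels per length separated the compartments more clearly than the fold changes did. The mean normalized count per exonic kilobase ran from 116 to 1062 (median 286) over the cytosolic members and from 27.7 to 148 (median 65.8) over the mitochondrial members. In 15 of 15 pairs the cytosolic gene had the higher level per kilobase, by a ratio of 1.89 to 28.4 (median 3.9). Nars (1062 per kilobase), Gars (989) and Hars (907) were the highest, and Nars against Nars2 (37.4) gave the largest ratio. The smallest ratios were those of Tars over Tars2 (1.89) and Iars over Iars2 (1.94). Exonic lengths are unions over all GENCODE transcripts, so a gene with long unused exons has too low a level per kilobase.

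**Figure D3:**
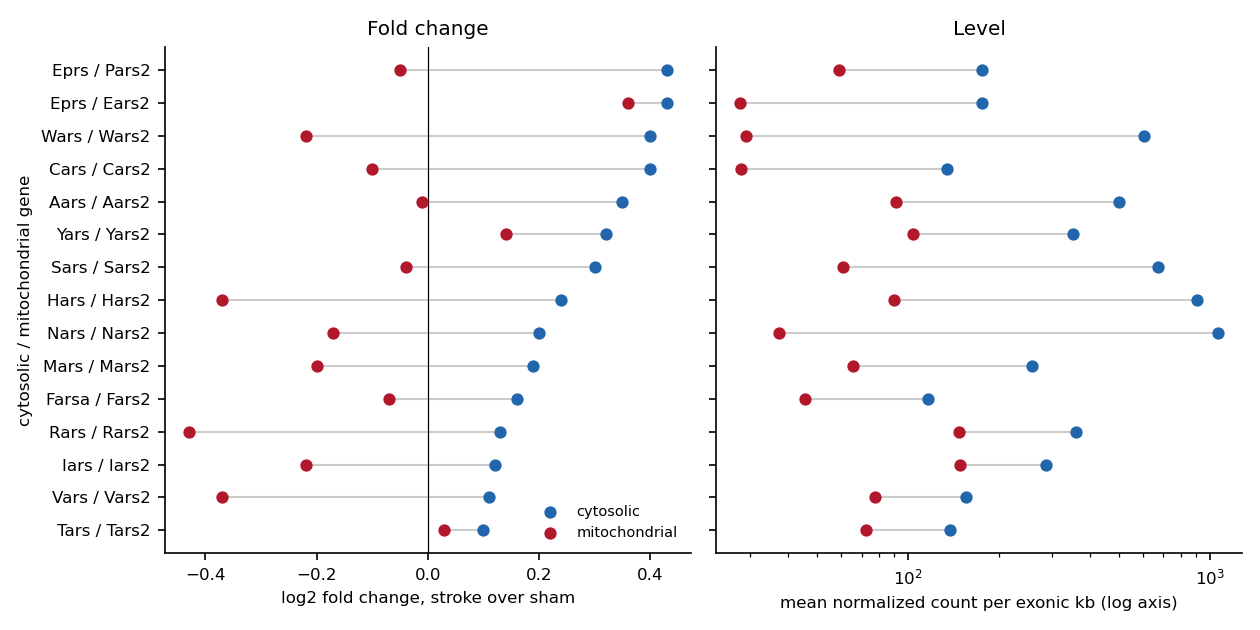
Cytosolic (blue) and mitochondrial (red) synthetase genes for the same amino acid, joined by a line, by log2 fold change of stroke over sham from the deposited table (left) and by mean normalized count per exonic kilobase on a log axis (right). The blue point lies to the right in 15 of 15 pairs in both panels.

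Summed over genes, the cytosolic members had 35217 and 34951 normalized counts in sham and 39678, 38271 and 46782 in stroke. The stroke sums exceeded both sham sums, and library C had the highest. The mitochondrial members summed to 6676 and 6036 in sham and 5532, 5716 and 5844 in stroke, all below both sham sums. The cytosolic sum was 5.28 and 5.79 times the mitochondrial sum in the sham libraries and 7.17, 6.7 and 8.01 times in the stroke libraries. This ratio within a library does not depend on its size factor, and its groups did not overlap. No test was made of this ratio, and an exact permutation test of 3 against 2 libraries cannot go below 0.2 two-sided. Among the cytosolic members, the 8 of the complex summed to 9842 and 11538 in sham and 10960, 11422 and 13652 in stroke. These sums overlapped. The other 13 summed to 25376 and 23413 in sham and 28718, 26850 and 33130 in stroke, without overlap.

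Stroke library C held most of the highest cytosolic values. It was the highest of the 5 libraries in 14 of 21 cytosolic members (66.7%) and 2 of 15 mitochondrial members (13.3%), beside 12.8% of the 9403 recovered genes with a mean in the range of the members. It exceeded both other stroke libraries in 18 of 21 cytosolic members (85.7%), 7 of 15 mitochondrial members (46.7%) and 40.2% of those genes. The library was singled out after its values were seen, and these shares are descriptions.

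Iars, the isoleucyl-tRNA synthetase (chr13:49682100-49734267, plus strand), differed most, with 2278 normalized counts in C against 1004 in A and 1393 in B, and 1218 and 1655 in sham. Stroke library A was the lowest of the 5 and library C the highest, so the spread within the stroke group exceeded that between the groups. Tars had 1120 in C against 652 and 725 in the other stroke libraries, and 700 and 853 in sham. Lars, the leucyl-tRNA synthetase, had 1393 in C against 992 and 1054, and 960 and 1180 in sham. Rars, the arginyl-tRNA synthetase, had 1442 in C against 1074 and 1080, and 934 and 1258 in sham. In Lars and Rars the values of A and B lay within the sham range and C above it. In Tars library A lay below both sham values, B between them and C above.

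The 5 members with the response element core in the printed windows (Aars, Gars, Iars, Tars and Yars) had their highest value in library C in 5 of 5 genes. Their log2 ratios of C over the mean of A and B were 0.51, 0.23, 0.93, 0.70 and 0.26. Of 9 cytosolic members with a window and no core, 3 were highest in C, and the median log2 ratio was 0.11 (range -0.07 to 0.17). Cytosolic members without a window were Cars, Lars and Rars, with log2 ratios of 0.60, 0.45 and 0.42, and also Hars, Nars, Vars and Wars. The latter had log2 ratios of 0.05, 0.19, 0.16 and 0.20. The comparison thus covers 14 of 21 cytosolic members.

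Many genes of the same arm outside the synthetases were also higher in library C than in A and B. Over 21 genes of amino acid synthesis and transport known as ATF4 targets, the median log2 ratio of C over A and B was 0.44, and 12 were highest in C (57.1%). Over 19 genes of the ATF4 and GCN2 arm the median was 0.28, and 9 were highest in C (47.4%). Over all recovered genes the median was 0.03, and 13.2% were highest in C. Slc7a11, the cystine transporter, had 3871 normalized counts in C against 1207 and 1959 in A and B, and 1144 and 1691 in sham. Sesn2, a stress-induced inhibitor of mTORC1 signalling, had 1137 against 577 and 440, and 397 and 361 in sham. Trib3, a pseudokinase induced by ATF4, had 74.4 against 23.3 and 25.6, and 5.29 and 8.18 in sham. Ddit4, another stress-induced inhibitor of mTORC1, went the other way with 737 against 1592 and 1485. These genes were named after their values were seen. Cebpb, Stc2, Ppp1r15a and Chac1, the 4 called genes of this arm, had log2 ratios of 0.28, -0.11, -0.15 and 0.83. Atf4 itself had a log2 ratio of 0.12. A role of ATF4 in these values or in those of the synthetases was not tested.

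Of the stroke libraries, C had the lowest microglial and mural marker sums and an endothelial sum between those of A and B. The microglial sum was 3195 in C against 3284 and 3852, the endothelial sum 4542 against 4017 and 5614, and the mural sum 3742 against 4647 and 5004. Within the microglial list Cx3cr1 was higher in C (1165 against 404 and 545) and P2ry12 lower (241 against 439 and 507). Of the mural genes, Rgs5 (2136 against 3069 and 3398), Tagln and Myl9 were lowest in C among the stroke libraries. Acta2 (388 against 345 and 363) and Pdgfrb (752 against 678 and 610) were highest in C. Of the endothelial genes, Cldn5 and Tek were highest in C, Cdh5 was lowest, and Pecam1 and Flt1 lay between A and B. The part of these values in the synthetase levels was not tested.

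**Figure D4:**
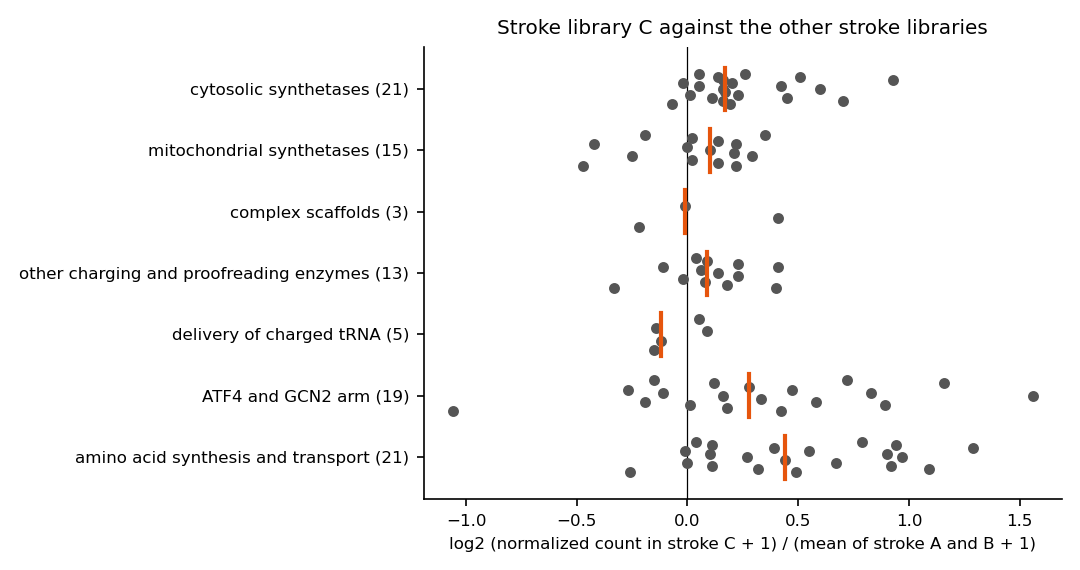
Log2 ratio of the normalized count in stroke library C over the mean of stroke libraries A and B, with 1 added to each (x axis), for each recovered gene (points) of the synthetases and the related lists, with the median of each list as an orange bar. Medians are 0.17 for cytosolic and 0.10 for mitochondrial synthetases, and 0.44 for amino acid synthesis and transport.

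Of the 19 genes in the ATF4 and GCN2 arm, which holds kinases, factors and targets of the pathway, 4 were called higher and 0 lower, beside 0.775% and 0.786% of all tested genes. An unadjusted p below 0.05 was found for 8 of 19 in DESeq2, beside 10.5% of all tested genes. In limma it was found for 7 of 19, beside 7.69% of 15386 genes. Cebpb, a C/EBP transcription factor, had 230 and 146 normalized counts in sham and 576, 579 and 700 in stroke. The log2 fold change in the authors' deposited table was 1.71 (SE 0.29, adjusted p = 6e-06). Stc2, a secreted glycoprotein induced by stress in the endoplasmic reticulum, stood at 1.78 (SE 0.34, adjusted p = 0.000108) there. Ppp1r15a (GADD34), which directs the dephosphorylation of eIF2alpha, stood at 0.96 (SE 0.25, adjusted p = 0.0128) per the authors' deposited table. Chac1, a glutathione-degrading enzyme, stood at 1.32 (SE 0.39, adjusted p = 0.0437) there, and did not pass when p-values were adjusted over every gene with a p-value (0.0794).

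Atf4 itself had 1873 and 1341 normalized counts in sham and 2334, 2316 and 2518 in stroke. The groups did not overlap, but its log2 change of 0.57 (SE 0.23, adjusted p = 0.254) per the authors' deposited table did not pass. Eif2ak4, which encodes GCN2, stood at 0.00 to 2 decimals (SE 0.27), and Impact, an inhibitor of GCN2 abundant in neurons, at -0.14 (SE 0.21, adjusted p = 0.938), both in the authors' deposited table. Ddit3 (CHOP), whose exons overlap those of Mars tail to tail over 1.99% of Mars, stood at 0.89 (SE 0.35, adjusted p = 0.222) per the authors' deposited table.

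Of the 21 genes of amino acid synthesis and transport, 0 were called in DESeq2 and 0 in limma. An unadjusted p below 0.05 was found for 5 of 21 in DESeq2, beside 10.5% of all tested genes. In limma it was found for 4 of 21, beside 7.69% of 15386 genes. Asns, the asparagine synthetase and a well-studied ATF4 target, had 1720 and 2183 normalized counts in sham and 2257, 1870 and 2575 in stroke, so the groups overlapped. Slc38a2, a neutral amino acid transporter, stood at 0.05 (SE 0.19, adjusted p = 0.986) per the authors' deposited table. Slc3a2, the heavy chain of several amino acid transporters, stood at 0.53 (SE 0.23, adjusted p = 0.325) there. The median log2 fold change of the list was 0.22, with 16 of 21 positive.

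Other enzymes that charge or proofread tRNA had mostly negative fold changes, with 0 of 13 called, 3 of 13 positive and a median of -0.12 on the log2 scale. In DESeq2 and in limma alike 0 of 13 had an unadjusted p below 0.05, and limma called 0. They include Qrsl1, Gatb and Gatc, the subunits that make mitochondrial glutaminyl-tRNA from glutamyl-tRNA. Gatc had 674 and 605 normalized counts in sham and 528, 550 and 570 in stroke, below both sham values. Trnt1, which adds the CCA end to tRNA, stood at -0.05 (SE 0.28), and Dtd1, which removes D-amino acids from tRNA, at -0.12 (SE 0.23), in the authors' deposited table.

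Factors that deliver charged tRNA to the ribosome had positive fold changes in 7 of 7 genes, and 1 was called higher, beside 0.775% of all tested genes. An unadjusted p below 0.05 was found for 3 of 7 in DESeq2, beside 10.5% of all tested genes. In limma it was found for 2 of 5, beside 7.69% of 15386 genes. Eef1g, a subunit of the exchange complex of elongation factor 1, had 626 and 1203 normalized counts in sham and 2072, 2339 and 2001 in stroke. All stroke values lay well above both sham values. The log2 fold change in the authors' deposited table was 1.23 (SE 0.31, adjusted p = 0.0117). Tufm, the mitochondrial elongation factor Tu, had 121 and 289 in sham and 467, 559 and 470 in stroke. Its log2 change of 1.29 (SE 0.39, adjusted p = 0.0549) per the authors' deposited table did not pass, and passed at 0.045 when fold changes were centred on the median of all tested genes. Tsfm, the exchange factor of Tufm, stood at 0.18 (SE 0.28) there, with 266 and 191 in sham and 266, 248 and 266 in stroke.

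The elongation factor 1 alpha genes Eef1a1 and Eef1a2, the latter the form of neurons and muscle, stood at 0.83 (SE 0.29, adjusted p = 0.15) and 0.40 (SE 0.24, adjusted p = 0.592) per the authors' deposited table. Reads per library were not searched for these abundant genes. The remaining exchange subunits Eef1b2 (0.16, SE 0.19) and Eef1d (0.06, SE 0.30) did not pass there, so the subunits of that complex had unequal fold changes. Whether Eef1g differed from Eef1b2 or Eef1d in its response was not tested. None of the list genes called here passed in the limma fit, which called 0.026% of all genes.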

How the data were processed

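RNA from 2 sham and 3 stroke samples was extracted with TRIzol, then an RNeasy kit, and a KAPA stranded mRNA kit gave the libraries, per the labels' protocols. The submitters' processing notes name STAR 2.5.2b, featureCounts 1.5.1, FastQC, the build GRCm38 and DESeq2 1.14.1. The sources used here do not give the annotation release or strand setting. The authors deposited 1 DESeq2 results table, with no values per library. Per the file headers it gives a mean over libraries of size-factor normalized counts (a signal), a log2 fold change, its standard error, a Wald statistic (a score), and the authors' p-value with its Benjamini-Hochberg adjusted p-value. Positive fold changes were taken as higher in stroke, since genes with 1 read in 1 library had positive values at 3 size factors and negative values at 2.

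The members and the gene lists were chosen with earlier results of these data known, so no test over a list was made. Calls use the deposited adjusted p below 0.05. Named genes are the 8 members with the smallest p, the 3 most abundant members, all genes of lists of up to 8, and up to 4 called and 2 uncalled genes of longer lists. Other genes are named for a pair, for a count of 6 or fewer, or after their values were seen.

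Whole reads per library were recovered by a search (Python 3.11.15, numpy 2.4.6, numba 0.67.0). It kept 5 counts where no other set in the searched range met all limits. The counts had to give the deposited mean and the fold change (to within 6e-10). The dispersion behind the deposited standard error had to match a value expected from a fit over 999 genes (to within 0.002 on the log scale). A dispersion near the peak of the gene's own likelihood was accepted as well. The range was 4 SDs around the group means for members. For other genes it was 2.5 SDs, widened only where no set was found. The search gave reads for 15386 of 15528 genes searched (99.1%), which were those with a mean up to 3000 and listed genes up to 7000. Of 300 genes with a mean shifted on purpose 0 were accepted. On simulated data for stroke against sham, 180 of 200 genes were recovered rightly and 0 wrongly. That check used the mean, the fold change and the standard error, without the limit of 0.002 on the dispersion. Recovered reads sum to between 6525346 and 10520589 per library, which is part of each library. The sources used here do not give total depths. Limma 3.58.1 (R 4.3.3) with trend was fitted to log2 of the normalized count plus a pseudocount of 1 as an alternative added after the file was seen. Exonic lengths and positions come from GENCODE M21. Of the promoter matches, only the match nearest the start of each gene is reported here.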

Additional observations from a re-analysis of the deposited data

How the results depend on the processing

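The count of members called was 0 in each direction under 4 alternatives to the deposited test: adjustment over every gene with a p-value, a minimum mean of 5 counts per 1000000, a null of a 1.5-fold change, and centring on the median of all tested genes. In the limma fit on recovered reads, added later, leaving out each library in turn gave 0 to 4 members called higher: 4 without the deeper sham library, 1 without the shallower one and 0 otherwise. The first of these omissions also called 2803 of 15386 genes, and the cause was not tested. The medians of all, cytosolic and mitochondrial members kept their sign under centring and the minimum mean. Leaving out each library in turn, as ratios of group means, gave medians of 0.00 (without the shallower sham library) to 0.21 (without the deeper one) for all members, 0.15 to 0.28 for the cytosolic and -0.18 to -0.01 for the mitochondrial members. Of the named genes, Eef1g, Cebpb, Stc2, Ppp1r15a and Chac1 did not pass against a 1.5-fold null or in limma, Chac1 also did not pass with the minimum mean (0.051), and Tufm passed when centred. No paired analysis was possible because the recovered libraries cannot be tied to the replicate numbers of the labels. The 2 sham libraries differed from each other by more than the absolute fold change in 28 of 36 members, and the smallest fold change that this design could call was not computed.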
